A study of Homo sapiens with 12 samples.

Results

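The nuclear genes for mitochondrial ribosomal proteins were followed across the libraries of a study of fatty acid toxicity in K562 cells, an established human leukemia line with erythroid features. Members were taken by name: a symbol of MRPL or MRPS, then digits and at most 1 final letter, so that pseudogenes and antisense genes stayed out, with a mean of at least 1 FPKM. The unit, a fragment count scaled by transcript length and by the library's mapped fragments, corrects a gene's level for transcript length and sequencing depth. The name rule matched 76 of the 23153 genes shared by the 3 tables, and all 76 passed the level, so 0 lay below it. The members nearest the threshold were MRPL19, at a mean of 10.4 FPKM, and the next lowest at 14.5 FPKM. By the ribosome's known composition 49 of the proteins belong to the large subunit, 26 to the small subunit and 1, MRPS36, to the 2-oxoglutarate dehydrogenase complex in spite of its name.

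The study comprised 3 experiments, each quantified in a table of its own, and the labels state that RNA of 3 biological replicates was pooled before each library was made. The titles of the wild-type and GPAT4ko palmitate libraries of experiment 2 span 2 sample numbers where the others of that experiment span 3, so these pools may have held 2. Experiment 1 held wild-type cells left untreated, given the saturated fatty acid palmitate, or given the monounsaturated palmitoleate. Experiment 2 held wild-type cells without fatty acid, with palmitate and with the mixture of both, together with GPAT4ko cells under palmitate. GPAT4ko is a knockout of GPAT4, an endoplasmic reticulum acyltransferase that puts the first fatty acid onto glycerol-3-phosphate. Experiment 3 held wild-type cells and RNF213kd cells, each untreated or with palmitate. In RNF213kd cells the transcript of RNF213 is knocked down, which encodes a very large E3 ubiquitin ligase also found on lipid droplets. Palmitate was given at 0.2 mM on albumin, for 20 h according to the labels, whereas the legends that head the tables of experiments 2 and 3 say 16 h. Palmitoleate was at 0.2 mM in the mixture, with no dose given for palmitoleate alone. How the GPAT4ko and RNF213kd cells were made, and whether either is a single clone, is not given in the sources used here. Of 12 labelled libraries 11 were used. The untreated GPAT4ko library had no values under its name and was not analysed here. The legend of the table of experiment 2 calls another library, which has no label, a GPAT4 knockout, and it was left unused because its name matches no labelled sample. Wild-type untreated and palmitate cells thus have 3 libraries each, and the other 5 groups used have 1 each.

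Mitochondria keep a ribosome of their own, whose RNA is encoded by mitochondrial DNA while every one of its proteins is made from nuclear genes and imported. It translates the few membrane subunits of the respiratory chain and ATP synthase that mitochondrial DNA encodes. Many of its proteins descend from bacterial ribosomal proteins and others were added in the mitochondrial lineage. Promoters of such nuclear genes are known for sites of NRF1, of the ETS family factor GABP, and of YY1.

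The promoters of 4 members are shown, since these members span the response: the gene that fell most in the small subunit (MRPS17), the mitochondria-specific small-subunit gene that fell with it (MRPS34), a large-subunit gene that fell (MRPL36) and the member with the highest ratio (MRPL48). Each run is the 250 bases before the RefSeq transcription start, 5′ to 3′ on the gene's strand, in the GRCh38.p14 build. Capitals mark matches, on either strand, to the NRF1 motif GCGCNTGCG, the ETS motif CCGGAAG or the YY1 motif AAGATGGCG. The stretches are chr7:55951627-55951876 on the plus strand for MRPS17, chr16:1773135-1773384 on the minus strand for MRPS34, chr5:1799838-1800087 on the minus strand for MRPL36 and chr11:73787624-73787873 on the plus strand for MRPL48.
MRPS17: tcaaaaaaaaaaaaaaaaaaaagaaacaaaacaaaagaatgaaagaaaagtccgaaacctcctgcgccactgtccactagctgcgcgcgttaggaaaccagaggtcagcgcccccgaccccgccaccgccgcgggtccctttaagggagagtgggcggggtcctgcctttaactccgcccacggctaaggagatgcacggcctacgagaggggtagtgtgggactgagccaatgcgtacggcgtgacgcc
MRPS34: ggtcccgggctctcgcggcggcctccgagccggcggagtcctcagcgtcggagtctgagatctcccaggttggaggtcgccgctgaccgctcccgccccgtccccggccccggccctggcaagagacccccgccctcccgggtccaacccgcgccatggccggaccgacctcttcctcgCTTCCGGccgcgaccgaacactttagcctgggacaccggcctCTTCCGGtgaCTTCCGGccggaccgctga
MRPL36: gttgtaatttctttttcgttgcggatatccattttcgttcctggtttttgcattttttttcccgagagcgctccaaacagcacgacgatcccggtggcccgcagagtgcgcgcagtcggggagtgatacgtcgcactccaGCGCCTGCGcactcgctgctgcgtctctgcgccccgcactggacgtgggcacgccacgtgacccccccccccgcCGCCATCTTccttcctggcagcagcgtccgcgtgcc
MRPL48: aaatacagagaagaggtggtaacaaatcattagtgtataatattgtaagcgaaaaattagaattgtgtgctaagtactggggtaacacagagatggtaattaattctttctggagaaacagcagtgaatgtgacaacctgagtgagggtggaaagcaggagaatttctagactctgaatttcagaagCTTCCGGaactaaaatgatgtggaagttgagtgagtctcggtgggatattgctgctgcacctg

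The MRPS17 stretch held none of these letters, which says only that they are not in this window. MRPS34 held 3 ETS matches, which began 71, 29 and 19 bases before the start. MRPL36 held 1 NRF1 match and 1 YY1 match and no ETS match, and MRPL48 held 1 ETS match. No marked matches overlapped in these 4 stretches. RefSeq promoters, here with the 50 bases after the start included, were matched by symbol for 67 members. The ETS motif occurred in 28 of them (41.8%), against 10.7% of all 27305 promoters and 21.5% of 7777 promoters of tested genes. The YY1 motif occurred in 13 (19.4%, against 1.85% and 4.65%) and the NRF1 motif in 10 (14.9%, against 8.05% and 16.4%).

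In untreated wild-type cells the members covered a wide range of levels. MRPS21, a small-subunit protein with a bacterial homologue, had the highest FPKM of any member in 10 of the 11 libraries, and MRPL33, a small protein of the large subunit, had it in untreated wild-type cells of experiment 3, at 433 FPKM. MRPL19 was lowest in 10 libraries, at 3.83 to 15.3 FPKM, and MRPL17 was lowest in the remaining one. Ranked by untreated FPKM, the 76 members kept much the same order between experiments, with Spearman's rho of 0.89, 0.89 and 0.84 for the 3 pairs of experiments. These are descriptions across genes of libraries from the same cell line.

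The median member stood at 65.8 FPKM in untreated cells of experiment 1, 84.8 in experiment 2 and 70.6 in experiment 3. With palmitate it stood at 54.2, 53.0 and 49.5 FPKM. Every palmitate library of wild-type cells thus lay below every untreated one in this median. Levels of different experiments come from tables that were scaled separately, so this order is a description only. The share of all FPKM that fell to the 76 members was 0.895%, 1.07% and 1.09% in untreated cells and 0.702%, 0.633% and 0.791% with palmitate. In the other libraries that share was 0.883% with palmitoleate alone, 1.01% with both fatty acids and 0.877% in GPAT4ko cells with palmitate. It was 1.04% in untreated RNF213kd cells and 0.838% in RNF213kd cells with palmitate. The share also depends on the total of each library. Summed over the members, FPKM was 6307, 7827 and 6674 untreated and 5742, 4552 and 4846 with palmitate. With palmitoleate alone the members summed to 7250 FPKM. All genes of experiment 1 summed to 704359 FPKM untreated, 817362 with palmitate and 821188 with palmitoleate.

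Across libraries the FPKM summed to 612355 to 821188, with 10495 to 11108 genes at 1 FPKM or more, and no 2 libraries were identical. GPAT4, listed as AGPAT6, was at 8.77 FPKM in the knockout with palmitate, against 20.0 in wild type with palmitate in the same experiment. RNF213 was at 1.39 and 1.54 FPKM in the knockdown, against 1.96 and 3.08 in wild type. Each of 12 erythroid markers of K562 cells was at 1 FPKM or more in all 11 libraries. Their summed level was 10100 to 18000 FPKM in untreated wild type and 5120 to 6250 FPKM with palmitate, and 11 of the 12 were lower with palmitate in all 3 experiments. Of 12 markers of other cell types 8 stayed under 1 FPKM everywhere, MS4A1 and CDH5 at 0 in every library. CD3D, LYZ and EPCAM were above 1 FPKM in every library, reaching 39.5, 57.8 and 62.3 FPKM, and COL1A2 reached 2.88 FPKM. The sum of all 12 ranged from 74.9 to 138 FPKM in untreated wild type and from 59.4 to 126 FPKM with palmitate. Of the 12, 3 were lower with palmitate in all 3 experiments and 2 were higher. What part the erythroid change has in the results that follow was not tested.

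Under palmitate the mitochondrial ribosomal protein genes lay lower in wild-type cells, as a group and in most of its members. A ratio is given as log2 of (FPKM + 1) with palmitate over untreated within 1 table, averaged over the 3 experiments, and this scale understates the change of low genes. The mean ratio was below 0 for 71 of the 76 members, against 5972 of all 11075 tested genes. Its median was -0.45 over the members, with quartiles of -0.68 and -0.26, and -0.06 over all tested genes. At a Benjamini-Hochberg adjusted p under 0.05 in limma, 7 members fell and 0 rose, against 3.84% of all tested genes called lower and 6.59% called higher. At an unadjusted p under 0.05, 26 members were lower (17.2% of all genes) and 0 higher (15.4%). A mean change of 1.5-fold or more was seen downward in 27 members (17% of all genes) and upward in 0 (14.9%). In these pooled bulk libraries, fewer cells with a transcript and less of it per cell cannot be told apart.

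The 3 experiments differed in size. The median member ratio was -0.16 in experiment 1, -0.79 in experiment 2 and -0.40 in experiment 3, against -0.01, -0.05 and -0.03 over all tested genes. Members below 0 numbered 49, 70 and 67 (64.5%, 92.1% and 88.2%), against 50.6%, 52.5% and 52.2% of all tested genes. In all 3 experiments 44 members were lower, or 57.9% against 29.6% of all tested genes, and 4 were higher, against 25.9%. For 30 members the 3 palmitate libraries all lay below the 3 untreated ones in FPKM (14.6% of all genes). MRPL48 and MRPL52 showed the converse (15.1% of all genes). Such overlap, here and for single genes below, compares levels across tables that were scaled separately. It leaves out the pairing by experiment and is a description only.

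**Figure D1:**
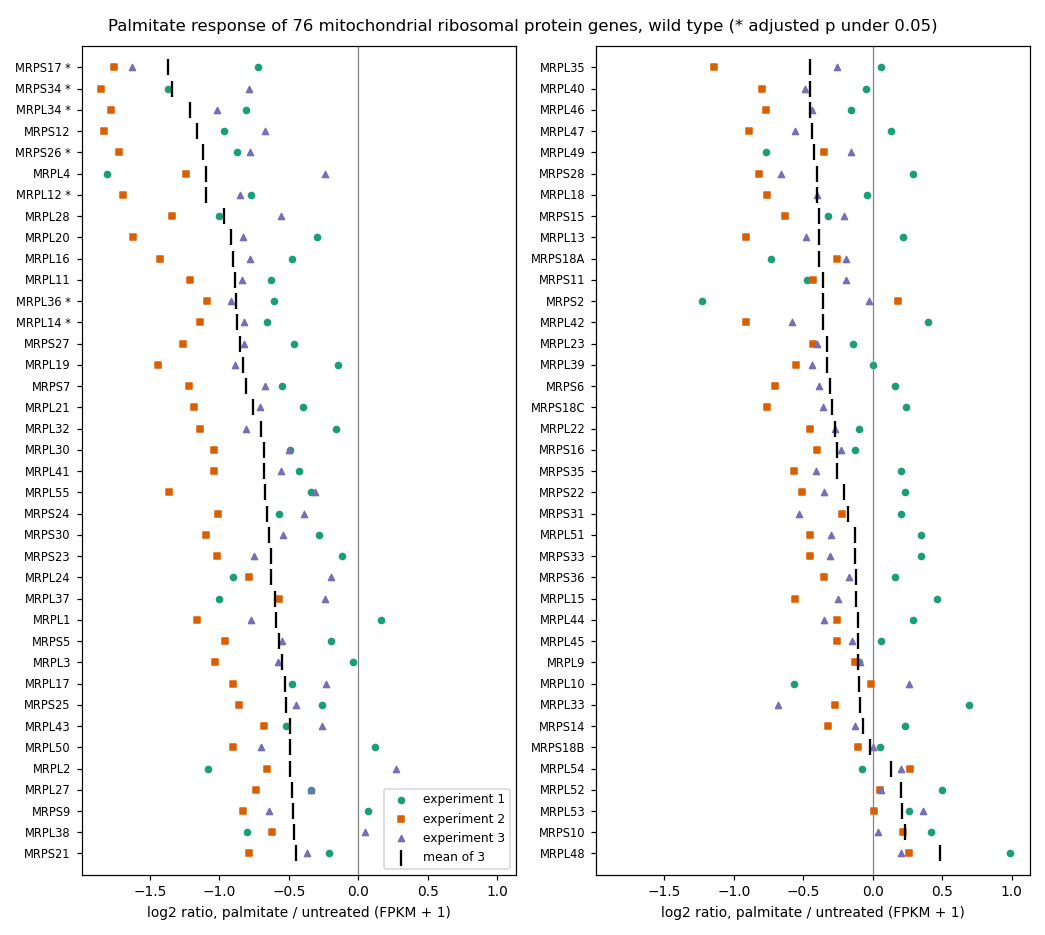
Log2 ratio of palmitate to untreated wild-type cells (x axis, on FPKM + 1) for each of the 76 members (y axis), sorted by the mean. Coloured symbols are the 3 experiments, black bars their mean, and asterisks mark the 7 members called lower; 71 means lie below 0, and experiment 2 gave the most negative median, -0.79.

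The called genes of the small subunit were MRPS17, MRPS34 and MRPS26. MRPS17, a homologue of a bacterial protein that binds ribosomal RNA, was at 134, 105 and 140 FPKM untreated in experiments 1, 2 and 3, and at 80.5, 30.2 and 44.4 FPKM with palmitate. Its palmitate libraries all lay below its untreated ones, and it fell by 1.37 ± 0.26 (SE, n = 3 experiments; limma adjusted p = 0.0362). The annotation places MRPS17 on GRCh37 at chr7:56019570-56024193, plus strand. MRPS34, a mitochondria-specific protein needed for a stable small subunit, was at 58.2, 157 and 75.9 FPKM untreated and at 21.9, 42.9 and 43.3 FPKM with palmitate. The untreated values of MRPS34 spread widely between experiments, yet none reached down to the palmitate values. It fell by 1.34 ± 0.25 (limma adjusted p = 0.0359) and lies at chr16:1821891-1823151, minus strand. MRPS26, also mitochondria-specific, was at 22.3, 33.0 and 27.1 FPKM untreated and at 11.7, 9.36 and 15.4 FPKM with palmitate, again without overlap. It fell by 1.12 ± 0.26 (limma adjusted p = 0.0494), from a locus at chr20:3026698-3028896, plus strand.

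In the large subunit the called genes were MRPL34, MRPL12, MRPL36 and MRPL14, all homologues of bacterial proteins. MRPL34 was at 63.3, 61.7 and 79.3 FPKM untreated and at 35.5, 17.2 and 38.6 FPKM with palmitate. Its groups did not overlap, and it fell by 1.21 ± 0.25 (limma adjusted p = 0.0431), at chr19:17403418-17417652, plus strand. MRPL12 forms the flexible stalk that recruits translation factors, and has also been reported to bind the mitochondrial RNA polymerase. It was at 65.4, 172 and 104 FPKM untreated and at 38.1, 52.6 and 57.3 FPKM with palmitate, and fell by 1.10 ± 0.25 (limma adjusted p = 0.0482), at chr17:79670397-79674547, plus strand. The lowest untreated value of MRPL12 lay above its highest palmitate value.

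MRPL36, a small zinc-binding protein, was at 95.2, 73.3 and 94.8 FPKM untreated and at 62.0, 33.8 and 49.6 FPKM with palmitate. It fell by 0.88 ± 0.20 (limma adjusted p = 0.0487), with separate groups, at chr5:1798499-1801480, minus strand. MRPL14, which lies at the contact between the subunits and binds the assembly factor MALSU1, was at 69.8, 144 and 102 FPKM untreated and at 43.9, 65.1 and 57.2 FPKM with palmitate. Its values did not overlap either, and it fell by 0.87 ± 0.20 (limma adjusted p = 0.0488), at chr6:44081188-44095189, minus strand.

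Exons of several of these genes overlap others in the annotation. For MRPL12, 69.5% of exon bases are shared on the same strand with a read-through gene, ENSG00000262660, that joins it to SLC25A10, a dicarboxylate carrier. SLC25A10 itself was at 26.5, 42.1 and 12.3 FPKM untreated and 2.91, 5.78 and 6.11 FPKM with palmitate, and fell by 2.13 ± 0.407 (limma adjusted p = 0.0362). MRPS17 shares 22.4% of its exon bases with ENSG00000249773 on the same strand. MRPS34 shares 31.2% with EME2 and MRPL34 14.6% with ABHD8, both on the opposite strand. These overlaps are those of the annotation, whose exons can differ from the gene models that were counted. The deposited locus of MRPL34, chr19:17416476-17417652, starts later than its annotated one. Whether it reaches the bases shared with ABHD8 was not tested. The libraries were stranded, but whether the counting used strand is not given in the sources used here. The levels of MRPS34 and MRPL34 are uncertain to that extent. For MRPL12 and MRPS17 strand would not separate the reads, since the overlap is on the same strand, so their levels are uncertain either way.

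**Figure D2:**
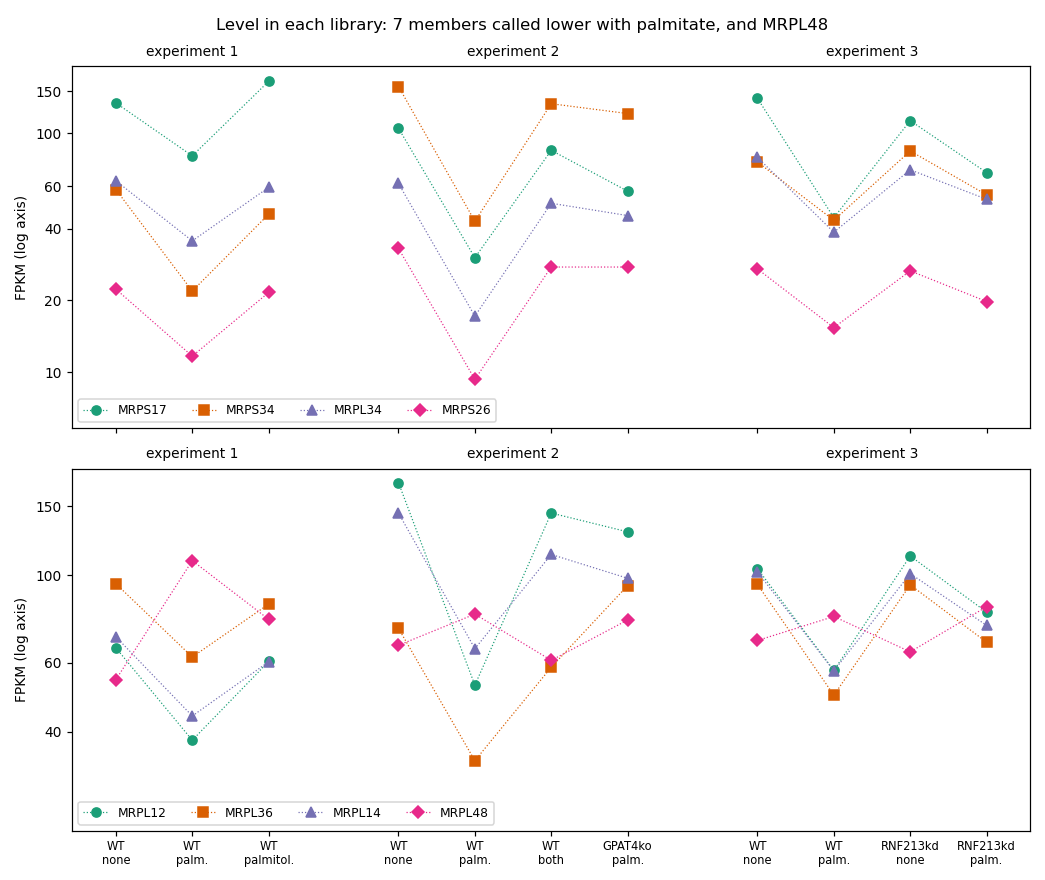
FPKM on a log axis (y) in each of the 11 libraries (x, grouped by experiment) for the 7 members called lower and for MRPL48. Dotted lines join the libraries of 1 experiment; within each experiment all 7 are lowest in wild-type cells with palmitate (WT palm.), whereas MRPL48 is higher there than in untreated cells.

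Some members of known function came close to the threshold without passing it. Nearest to it of all members not called were MRPL28 (limma adjusted p = 0.0504), MRPS12 and MRPL11 (0.052). MRPS12, which sits at the decoding centre, was at 83.4, 118 and 70.6 FPKM untreated and at 42.1, 32.6 and 43.9 FPKM with palmitate, a difference of -1.16 ± 0.27 (limma adjusted p = 0.0514). MRPL20 was at 258, 370 and 250 FPKM untreated and 209, 120 and 140 FPKM with palmitate, a difference of -0.92 ± 0.28 (limma adjusted p = 0.0885). The palmitate values of MRPS12 and of MRPL20 lay below their untreated values without overlap. MRPL4, which lines the exit tunnel, had a mean ratio of -1.10 ± 0.32 (limma adjusted p = 0.0813) made of unequal parts, -1.81, -1.24 and -0.24 in experiments 1, 2 and 3. Its untreated value in experiment 3, 39.8 FPKM, was below its palmitate value in experiment 2, 46.8 FPKM.

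At the other end, MRPL48 had the highest mean ratio. MRPL48 belongs to the mitochondria-specific proteins of the central protuberance, the crest of the large subunit. It was at 54.3, 66.4 and 68.3 FPKM untreated and at 109, 79.7 and 78.6 FPKM with palmitate, so each palmitate library lay above each untreated one. The mean ratio was 0.48 ± 0.23 (limma adjusted p = 0.213), from ratios of 0.99, 0.26 and 0.20 in experiments 1, 2 and 3. It lies at chr11:73498917-73576178, plus strand. The other members above 0 were MRPS10 (0.23), MRPL53 (0.21), MRPL52 (0.20) and MRPL54 (0.13), with limma adjusted p of 0.45, 0.481, 0.518 and 0.676. Apart from MRPS10, these are mitochondria-specific proteins of the large subunit.

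Other members of a panel with known roles were not called. MRPL41 had a ratio of -0.68 (limma adjusted p = 0.0882), MRPL37 of -0.60 (0.126), and MRPL3, a core protein mutated in a cardiomyopathy, of -0.55 (0.182). MRPS16, the first member linked to a human disease, stood at -0.26 (0.382) and MRPS22 at -0.21 (0.542). MRPL44 stood at -0.11 (0.764), as did MRPL45 (0.711), which holds the ribosome at the inner membrane. MRPL10, which anchors the MRPL12 stalk, stood at -0.10 ± 0.23 (limma adjusted p = 0.786). MRPL10 was at 42.4, 57.6 and 28.8 FPKM untreated and 28.3, 57.4 and 34.8 FPKM with palmitate, lower in experiment 1 and higher in experiment 3, so the stalk proteins MRPL12 and MRPL10 differed in their values.

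The 3 relatives of bacterial S18 sit in different places: MRPS18A in the large subunit, and MRPS18B and MRPS18C in the small one. Their ratios were -0.39 (limma adjusted p = 0.248), -0.02 (0.95) and -0.29 (0.451). The deposited locus of MRPS18B lies on an alternate haplotype, 6_ssto_hap7. Whether its reads were split between copies of the locus was not tested. MRPS30, a large-subunit protein despite its name, stood at -0.64 (limma adjusted p = 0.123), with 45.5, 77.3 and 50.4 FPKM untreated and 37.4, 35.6 and 34.3 FPKM with palmitate. MRPS36, the enzyme-complex subunit, was at 83.1, 71.7 and 75.5 FPKM untreated and 93.2, 56.0 and 67.1 FPKM with palmitate. Its groups overlapped and its ratio was -0.12 ± 0.20 (limma adjusted p = 0.714).

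The subunits differed little in their medians, -0.48 for 49 large-subunit members and -0.39 for 26 small-subunit members, with 4 and 3 called lower. The median was -0.51 for 44 members with a bacterial homologue and -0.39 for 29 mitochondria-specific members. By experiment these were -0.31, -0.90 and -0.44 for the former, and -0.05, -0.57 and -0.35 for the latter. Of the members with a bacterial homologue 43 of 44 had a mean ratio below 0, and of the mitochondria-specific ones 25 of 29. Over all tested genes it was 5972 of 11075. The difference between these classes was not tested.

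Which members changed most was alike in experiments 2 and 3 and less so in experiment 1. Ranked by ratio, the members gave Spearman's rho of 0.80 between experiments 2 and 3, 0.48 between 1 and 2, and 0.18 between 1 and 3, across 76 genes that share their libraries. In experiment 1 the ratio also went with base composition: its rho with transcript GC content was -0.67 across members, against -0.14 and 0.05 in experiments 2 and 3. All tested genes with a GC value showed the same pattern, at -0.63, -0.02 and 0.15. With the GC trend of all genes removed from each ratio, the member medians were -0.15, -0.72 and -0.33. The members' rho with GC content was then 0.31, -0.10 and -0.13, so in experiment 1 the removal left a relation of the opposite sign among them.

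**Figure D3:**
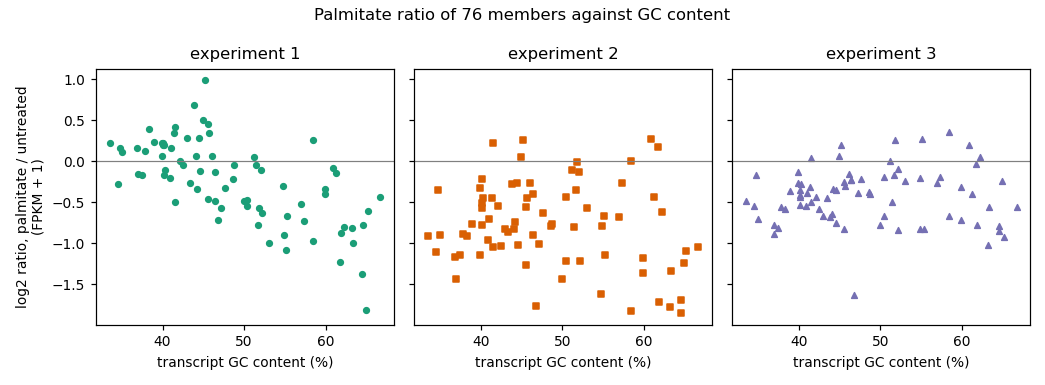
Log2 palmitate ratio on FPKM + 1 (y axis) against transcript GC content in percent (x axis), 1 panel per experiment and 1 point per member. The points slope downward most in the panel of experiment 1, with rho of -0.67 against -0.14 and 0.05.

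Which members pass the threshold depended on the settings of the fit. With the GC trend removed 14 members were called lower (12.3% of all genes), of which MRPS17 and MRPS34 were among the 7 above, while MRPL12, MRPL14, MRPL34, MRPL36 and MRPS26 no longer passed. MRPL19, at -0.92 (limma adjusted p = 0.0256), and MRPS30, at -0.77 (0.0296), were among the 12 others. Without small RNA genes in the fit 17 members were called lower (11.1% of all genes), including all 7. Without the pairing by experiment 0 of the 76 were called (0.47% of all genes were called lower), with a smallest member adjusted p of 0.0649 and 26 lower at an unadjusted p under 0.05 (11.5% of all genes). Leaving out experiment 1 or experiment 3 also left 0 called, with smallest limma adjusted p of 0.0525 and 0.137. At an unadjusted p under 0.05, 41 members were lower without experiment 1 (21.1% of all genes) and 13 without experiment 3 (10.9%). At the adjusted threshold 0 of all 11075 genes were called lower in those fits. Leaving out experiment 2 left MRPS17 and MRPS34, or 2 members, beside 2.63% of all genes.

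The remaining comparisons rest on 1 library a side and are described by size. A test that gave the lone ratio the spread of the wild-type palmitate ratios called 0 of 76 members in each of them. Of all genes it called 0.0813% in each palmitoleate comparison, 0.0451% in each comparison with both fatty acids and 0.0722% in the GPAT4ko comparison. For RNF213kd it called 0.135% untreated, 0.0993% under palmitate, 0.19% for palmitate within the knockdown and 0.163% for the difference of responses. At an unadjusted p under 0.05, it gave 0 members except where a count is stated. Comparisons within an experiment share libraries, so their values are given side by side without a measure of likeness.

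With palmitoleate alone the median member lay near its untreated level in experiment 1, with quartiles of -0.13 and 0.35. The median ratio of palmitoleate to untreated was 0.14, with 50 of 76 members above 0 (50.7% of all genes). Past 1.5-fold were 7 members upward (6.23% of all genes) and 5 downward (18.5%). MRPL33 had the highest ratio, 0.74, and MRPL4 the lowest, -1.20. The untreated library is the one whose palmitate ratio went with GC content. With the GC trend removed the median stayed at 0.14, and members past 1.5-fold in either direction went from 12 to 11. At an unadjusted p under 0.05, 1 member, MRPL49, was lower (1.95% of all genes), with a ratio of -0.91 (interval -1.82 to 0.00, limma adjusted p = 0.8). Set directly against palmitate, with palmitoleate's own dose not given, the median was 0.32 and 70 members were higher with palmitoleate (52.1% of all genes). Past 1.5-fold were 11 upward (7.77% of all genes) and 0 downward (11.0%). MRPS34 differed most, at 45.9 FPKM with palmitoleate and 21.9 with palmitate, 1.04 on the log2 scale (95% interval -0.05 to 2.12). MRPS17 followed at 165 against 80.5 FPKM, 1.02 (interval -0.09 to 2.14). MRPL48 lay the other way, at 77.3 against 109 FPKM (-0.49).

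Added to palmitate, palmitoleate went with a median level between those of palmitate and untreated cells. With both fatty acids 75 of 76 members were below untreated in experiment 2 (52.9% of all genes), at a median of -0.24, and 0 were past 1.5-fold in either direction (3.96% and 1.83% of all genes). MRPS12 was lowest at -0.57 and MRPS22 was the exception at 0.17. Cytosolic ribosomal protein genes had a median of -0.18 against untreated and of -0.28 against palmitate alone. The summed FPKM of all genes was 653590 with both fatty acids and 730566 untreated. What part a shift of the whole library has in the ratio to untreated was not tested. Against palmitate alone the median was 0.55, with 67 members above 0 (52.5% of all genes), 36 of them past 1.5-fold upward (21.6% of all genes) and 0 downward (19.1%). MRPS34 was at 133 FPKM with both fatty acids, against 42.9 with palmitate and 157 untreated. That is a log2 ratio to palmitate of 1.61, with an interval of 0.52 to 2.69 (limma adjusted p = 0.196). MRPL34, at 17.2 FPKM with palmitate, followed with a ratio of 1.51 (interval 0.44 to 2.59). MRPL54 lay the other way, at 56.4 against 83.6 FPKM (-0.56). At an unadjusted p under 0.05, 12 members were higher with both than with palmitate alone (8.36% of all genes).

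GPAT4ko cells under palmitate also held higher levels than wild-type cells under palmitate. The median ratio was 0.53 and 69 of 76 members were above 0 (52.9% of all genes). Of these 31 were past 1.5-fold (18.7% of all genes), with 0 as far downward (16.4%), and 7 of the higher ones had an unadjusted p under 0.05 (6.05% of all genes). MRPL36 was at 94.2 FPKM in the knockout, against 33.8 in wild type with palmitate and 73.3 in untreated wild type. Its log2 ratio to wild type with palmitate was 1.45, with an interval of 0.60 to 2.30 (limma adjusted p = 0.285). MRPS34 was at 121 against 42.9 FPKM (1.47, interval 0.39 to 2.56) and MRPS26 at 27.6 against 9.36 FPKM (1.46). MRPS17 was at 57.3 against 30.2 FPKM, with 105 FPKM in untreated wild type. MRPS10 was lower in the knockout, at 59.5 against 83.8 FPKM (-0.49). Without an untreated GPAT4ko library in the comparison, a level that the knockout had before palmitate cannot be told apart from its response.

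RNF213kd cells differed little from wild type while untreated. The median ratio was -0.02, with 33 members above 0 (54.8% of all genes), 1 past 1.5-fold upward (MRPL2, 0.62; 2.58% of all genes) and 2 downward (MRPL33 and MRPL1, both -0.61; 1.07%). Under palmitate the median was 0.19, with 70 members higher in the knockdown (55.4% of all genes) but 1 past 1.5-fold (2.39%) and 0 downward (3.06%). That member was MRPS17, at 68.5 against 44.4 FPKM, 0.61 on the log2 scale (interval -0.51 to 1.73). In the same comparison under palmitate, the median was 0.23 for cytosolic ribosomal protein genes and 0.25 for nuclear-encoded subunits of oxidative phosphorylation.

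Within RNF213kd cells palmitate went with a median member ratio of -0.19, against -0.40 in wild type of the same experiment. Below 0 were 66 members (54.0% of all genes), and 2 were past 1.5-fold downward (3.83%), MRPS17 at -0.72 and MRPS34 at -0.60, with 0 upward (7.14%). MRPL48 was highest at 0.37. The difference of the responses, knockdown minus wild type, had a median of 0.25 and was above 0 for 61 members (49.5% of all genes). It was past 1.5-fold upward for 6 (3.4% of all genes) and downward for 0 (7.23%). The difference was largest for MRPS17, at 0.92 with an interval of -0.67 to 2.50 (limma adjusted p = 1.0), so the size of the response was not distinguished between knockdown and wild type for any single member.

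**Figure D4:**
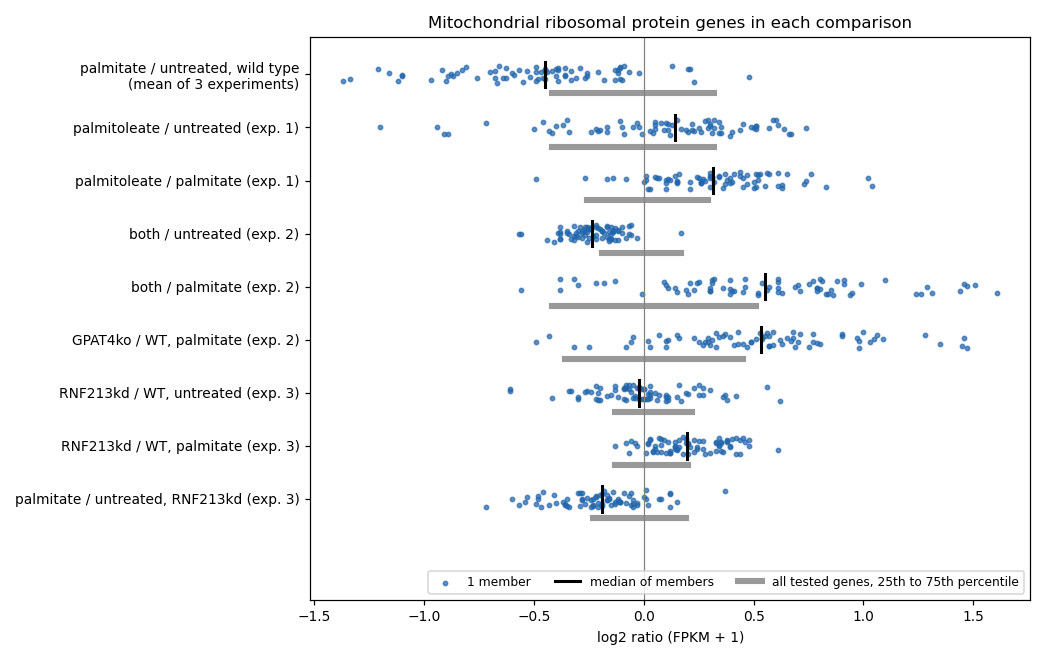
Log2 ratio on FPKM + 1 (x axis) of the 76 members in each comparison (y axis), 1 point per member; the first row is the mean of 3 experiments and the others compare 2 single libraries. Black bars are member medians, from -0.45 in the first row to 0.55 for both fatty acids against palmitate, and grey bars span the 25th to 75th percentile of all tested genes.

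Read within each experiment, wild-type cells with palmitate gave the lowest value of all libraries for 47 members in experiment 1 (61.8%), 66 in experiment 2 (86.8%) and 63 in experiment 3 (82.9%). The same held for 37.5%, 42.6% and 40.2% of all tested genes. Untreated wild type gave the highest value for 26, 62 and 40 members (34.2%, 81.6% and 52.6%), against 39.2%, 30.9% and 25.9% of all genes. These orders share the untreated and palmitate libraries with the ratios above.

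The partners of the mitochondrial ribosome were read from lists, as counts beside the same backgrounds of 3.84% lower and 6.59% higher. For mean ratios below 0 the background is 5972 of 11075 tested genes. Of 7 mitoribosomal proteins with other names 6 had a mean ratio below 0 and limma called 0, at a median of -0.42. At an unadjusted p under 0.05, 3 of them were lower (17.2% of all genes) and 0 higher (15.4%). PTCD3 stood at -0.85 (limma adjusted p = 0.0756), AURKAIP1 at -0.78 (0.0593) and GADD45GIP1 at -0.75 (0.109). Of 26 genes for assembly and rRNA modification 22 were below 0 and 2 fell, at a median of -0.59. Those called were the rRNA methyltransferases MRM1, by 1.18 (limma adjusted p = 0.0461), and FTSJ2, now MRM2, by 1.09 (0.037), with the RNA helicase DHX30 next at -0.89 (0.085). Of 16 translation factors 13 were below 0 and 2 fell, at a median of -0.46. They were PDF, which removes the formyl group from new peptides, by 1.06 (limma adjusted p = 0.0434), and the elongation factor TUFM, by 0.93 (0.0443), with its exchange factor TSFM next at -0.89 (0.0646).

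Of 20 mitochondrial aminoacyl-tRNA synthetases and partners, 17 were below 0 and 1 fell, at a median of -0.43. It was MARS2, the methionyl-tRNA synthetase, which fell by 1.35 ± 0.25 (limma adjusted p = 0.0334). EARS2, for glutamate, stood at -0.87 (limma adjusted p = 0.0517) and CARS2, for cysteine, at -0.78 (0.076). Of 14 genes for mitochondrial transcription, RNA processing and DNA copy, all 14 were below 0 and 2 fell, at a median of -0.54. These were RG9MTD1, now TRMT10C, by 1.24 (limma adjusted p = 0.0451), and ELAC2, by 1.23 (0.0324), which act in cutting tRNAs out of mitochondrial transcripts. PNPT1, a mitochondrial RNA-degrading enzyme, stood at -0.90 (limma adjusted p = 0.089). Among 75 nuclear-encoded subunits of oxidative phosphorylation 70 were below 0 and 1 fell, at a median of -0.33. The called one was the ATP synthase subunit ATP5J2, by 0.87 (limma adjusted p = 0.0376). Larger ratios that were not called belonged to another ATP synthase subunit, ATP5D, at -0.98 (limma adjusted p = 0.0868), and to cytochrome c1, CYC1, at -0.91 (0.0908).

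The cytosolic ribosome differed in direction. Of 77 cytosolic ribosomal protein genes 8 were below 0 and limma called 0 either way, at a median of 0.23 and at 0.32, 0.10 and 0.20 in the 3 experiments. At an unadjusted p under 0.05, 6 were higher (15.4% of all genes) and 1 lower (17.2%). RPS26 stood at -0.75 (limma adjusted p = 0.102) and RPL10 at 0.53 (0.147). RPL21 had the widest spread, at 4.33, -0.39 and -0.96 in experiments 1, 2 and 3. In experiment 1 it was at 0 FPKM untreated and 19.1 FPKM with palmitate, so that ratio depends on the 1 FPKM added. Of 12 tested nuclear regulators of mitochondrial genes, with a median of 0.07, 3 rose and 0 fell. All 3 are stress-response factors: DDIT3 rose by 3.04 (limma adjusted p = 0.012), ATF5 by 1.99 (0.0283) and ATF4 by 1.30 (0.0465). Of the 12 regulators 5 had a mean ratio below 0, the lowest being PPRC1 at -0.94 (limma adjusted p = 0.0975). NRF1 stood at -0.34 (limma adjusted p = 0.314), YY1 at -0.27 (0.392) and GABPA at 0.13 (0.768).

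**Figure D5:**
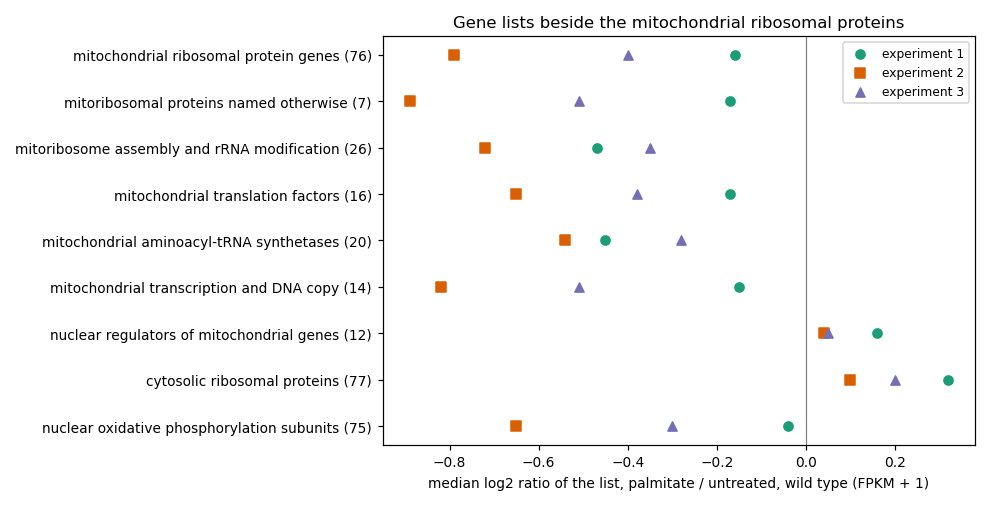
Median log2 palmitate ratio on FPKM + 1 in wild-type cells (x axis) for the members and 8 other gene lists (y axis, number tested in brackets), 1 symbol per experiment. The 7 lists of mitochondrial components lie below 0 in each experiment, from -0.89 to -0.04, and the cytosolic ribosomal proteins above 0, from 0.10 to 0.32.

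Members with and without each promoter motif had similar median ratios, a description with no test. The median palmitate ratio was -0.44 for 28 members with the ETS motif and -0.53 for 39 without it. It was -0.45 and -0.48 for 13 members with and 54 without the YY1 motif, and -0.50 and -0.46 for 10 with and 57 without the NRF1 motif. Of the 7 called members, 2 held the ETS motif (MRPS34 and MRPS26), 2 the NRF1 motif (MRPL36 and MRPL14) and 1 the YY1 motif (MRPL36). A match is a description of letters, and binding was not measured.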

How the data were processed

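Stranded mRNA libraries of K562 cells were read on hg19 with TopHat2 and Cuffdiff, versions not stated, per the submitters' processing notes. The deposited values are gene-level FPKM, which the authors computed with Cuffdiff and scaled separately in each of the 3 tables. Read counts are not given, so precision rests on the spread between experiments, and p-values measure only that spread. The tables also hold 2 libraries absent from the labels, which were not used.

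Ratios of log2(FPKM + 1) were formed within a table. The 3 wild-type palmitate ratios went into an intercept model in limma 3.58.1 under R 4.3.3 (intensity trend, 2 residual and 3.86 prior degrees of freedom, two-sided, Benjamini-Hochberg over the 11075 genes that averaged 1 FPKM or more). Single-library comparisons borrowed that variance, a difference of responses used the variance of 2 ratios, and the code was tested on simulated data. Intervals are 95% limma intervals. The experiment number in the labels pairs the libraries. After group means were removed, untreated and palmitate libraries of the same experiment correlated at 0.46, 0.63 and 0.70 across genes. Those of different experiments correlated at -0.53 to 0.01. With group means removed, positive values within experiments bring negative ones between them on balance. Libraries of 1 table also share a scaling, so these values describe the pairing and do not test it.

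Positions, overlaps, transcript GC content and length came from GENCODE release 44 on GRCh37, the assembly of hg19, with GC values for 10665 tested genes (96.3%). Promoters came from RefSeq on GRCh38.p14. Members named were drawn from those called, the 6 highest and 6 lowest ratios, the 3 highest and 3 lowest untreated levels, the 3 extremes of each single-library comparison, and a panel with known roles; other genes are the 3 largest changes of each list. MRPL28 and MRPL11 were added as uncalled members near the threshold, and PPRC1, NRF1, YY1 and GABPA as uncalled regulators. Members, lists and this rule were chosen with earlier results of these data known. Alternatives tried were a pseudocount of 0.1 FPKM, other level filters, centring on the median gene, no pairing, no intensity trend, each experiment left out, no small RNA genes (201 left out) and removal of the GC trend by lowess (window 0.3).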

Additional observations from a re-analysis of the deposited data

How the results depend on the processing

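The count of members called lower, 7, was 0 with no filter on low values (23153 genes tested, of which 0 were called, with 22 members lower at an unadjusted p under 0.05, against 7.88% of all genes), 0 with no replicate block, 0 to 2 with 1 experiment left out, 17 without small RNA genes and 14 with the GC trend removed. It was 6 to 10 under the other alternatives. Without experiment 2 the prior pooled the variance fully across genes, so that fit leans on 1 common spread. The paired analysis is the one reported throughout. Counts past 1.5-fold moved from 11 to 7 with the GC trend removed for palmitoleate against palmitate, from 3 to 0 for untreated RNF213kd cells, from 1 to 0 for RNF213kd cells under palmitate and from 2 to 1 for palmitate within them, the last pair also moving to 0 and 1 when centred on the median gene. The sign of small mean ratios reversed for MRPL10 (-0.29 to 0.13 with 1 experiment left out, 0.01 with the GC trend removed), MRPL33 (-0.47 to 0.21 with 1 left out), MRPL44 (-0.31 to 0.01) and MRPS18B (-0.06 to 0.03 with 1 left out, 0.01 when centred, 0.08 with the GC trend removed). Why these values moved was not tested, except that each left-out experiment lowers the residual degrees of freedom. Genes called lower in the lists rose with the GC trend removed to 9 for assembly, 7 for translation factors, 5 for aminoacyl-tRNA synthetases, 7 for transcription and 7 for oxidative phosphorylation, and without small RNA genes to 6, 5, 4, 3 and 8, while 12.3% and 11.1% of all genes were called lower. Called higher with the GC trend removed were 3 assembly genes and 3 cytosolic ribosomal proteins, against 15.3% of all genes, and without small RNA genes 1 cytosolic ribosomal protein was called lower. Read depth is unknown, so no detection limit could be set.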

Other observations

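3 genes whose names resemble the members fell outside the name rule and were at low levels. The pseudogene MRPL45P2 ranged from 1.71 to 5.96 FPKM over the 11 libraries, MRPL42P5 from 0.111 to 1.35 FPKM, and the antisense gene MRPL23-AS1 from 0 to 0.355 FPKM. MRPL45P2 was at 2.59, 2.58 and 4.54 FPKM in untreated wild-type cells and at 5.96, 3.81 and 5.12 FPKM with palmitate, so it was higher with palmitate in each experiment, while MRPL45 itself was at 36.8, 53.9 and 49.5 FPKM untreated and 38.6, 44.9 and 44.5 FPKM with palmitate. Reads of a pseudogene and its parent gene can be split by the counting, so the level of MRPL45P2 is uncertain.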
